A study of Mus musculus with 6 samples.

Results

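Transcripts of 40 genes that carry proteins from the endoplasmic reticulum (ER) to the Golgi and back were measured in mouse pancreatic islets after 24 h in culture at 2 glucose levels. The 40 genes were chosen by name and role, from 46983 genes in the count table. They encode COPII and COPI coat proteins, cargo and KDEL receptors, Golgi matrix and fusion proteins, and transcription factors of the Creb3 family. All 40 passed the filter on low counts, which left 13996 genes, and the lowest count of any of the 40 in any library was 78.

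Islets are clusters of endocrine cells that include the insulin-secreting beta cells. Both groups were wild-type islets held in CMRL medium, 1 at low (non-stimulating) and 1 at high (stimulating) glucose, with 3 libraries of polyadenylated RNA each. The labels name the cells as beta cells or pancreatic islets, so each library is a mixture of cell types. Glucose concentrations, strain, age and animal numbers: none of these is stated in the sources used here. The labels also do not tell whether replicates are separate animals, and a p-value here reflects no more than how far these libraries scatter, which may be technical.

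Secretory proteins leave the ER in vesicles coated by COPII. The small GTPase Sar1 is switched on by Preb (the mammalian Sec12) and recruits an inner layer of Sec23 and Sec24, where Sec24 binds cargo, and an outer cage of Sec13 and Sec31. Escaped ER proteins are returned by COPI vesicles, which depend on the KDEL receptors for soluble proteins. Creb3 factors are membrane-anchored transcription factors that are cut by the Golgi proteases S1P and S2P, and several members of the family raise expression of coat genes in secretory cells. Beta cells and the acinar cells of the exocrine pancreas both make large amounts of secreted protein and use this machinery.

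Libraries held 10596020 to 15846235 counts and differed in makeup. The 24 acinar markers made up 48.2%, 64.1% and 61.6% of the library in replicates 1 to 3 at low glucose (called low 1 to low 3), and 12.4%, 24.7% and 23.9% in those at high glucose (called high 1 to high 3). Of these markers 20 fell and none rose. The 16 islet endocrine markers took 2.24% to 4.76% at low and 3.74% to 10.02% at high glucose, less than the acinar markers in every library. Of them 2 rose and 4 fell, and none was at 0 in all libraries. All 8 intestinal epithelium markers fell, from 0.478%, 0.226% and 0.0819% of the counts in low 1 to low 3 to at most 0.0258% at high glucose. Of 8 duct markers 3 rose, and summed CPM went from 624 to 952 at low to 2885 to 3336 at high glucose. Of 8 stellate and fibroblast markers 2 fell, of 6 endothelial markers 2 fell, of 6 macrophage and lymphocyte markers 1 rose, and of 6 plasma cell markers, 5 of them above the filter, 1 rose and 2 fell. CPM here means counts per 1000000 of the TMM-scaled library size, a scaling that sets most genes to no change, so summed CPM of abundant genes can exceed a share of the library. In bulk samples, fewer cells of a type and less RNA per cell cannot be told apart.

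With TMM scaling, but not with library totals, most of the 40 transcripts differed by less than 0.5 on the log2 scale between glucose levels. At high glucose 2 of the 40 genes rose (Tmed9 and Creb3) and 3 fell (Sec23a, Sec16b and Creb3l1), although with scaling by library totals the last 3 had values above 0 that did not pass. That is 12.5% of them, whereas 27.5% of all genes tested passed edgeR's quasi-likelihood test at a Benjamini-Hochberg adjusted p under 0.05. By direction, the background was 13.3% higher and 14.2% lower. The log2 fold change (high minus low) of 33 of the 40 genes, or 82.5%, lay within 0.5 of 0, against 51.0% of all genes. The median was -0.10 over the 40 and 0.01 over all genes, and 25 of the 40 values were negative. The median standard error (SE) was 0.19 for the 40 genes and 0.26 for all genes, and 7 of the 40 (17.5%, against 41.5% of all genes) had an unadjusted p under 0.05. For 14 of the 40 the groups did not overlap, against 45.9% of all genes.

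Directions depend on the scaling and on single libraries. Scaling by library totals moved the median of all genes to 1.16 and that of the 40 genes to 1.09, and 34 of the 40 were then called higher and none lower (59.7% of all genes were higher). Sec23a, Sec16b and Creb3l1 then had 0.07, 0.10 and 0.52, below that median of all genes, and Creb3 and Tmed9 had 1.87 and 2.00, above it. With library sizes set by the islet endocrine markers, 0 of the 40 passed by edgeR (2 at an unadjusted p under 0.05) and the median of the 40 was 0.22 (0.36 over all genes). Without low 2 or without high 3, 0 of the 40 passed by edgeR, with 5 at an unadjusted p under 0.05 in either case. Without high 2 only Tmed9 passed, without low 1 only Creb3l1 and Tmed10, both lower, and without low 3 only Sec23a, Sec16b and Creb3. Without high 1 more passed, 3 higher and 5 lower: the 5 genes above, Sec24b (higher) and Sec24d and Tmed10 (lower). Calls over all genes moved the same way. With all libraries 3848 of 13996 genes passed, and without high 1 5685 of 14102 did. Leaving out low 2 or high 3 left 1743 of 14556 and 1999 of 14308. Leaving out high 2, low 1 or low 3 left 2572, 2683 and 2871.

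**Figure D1:**
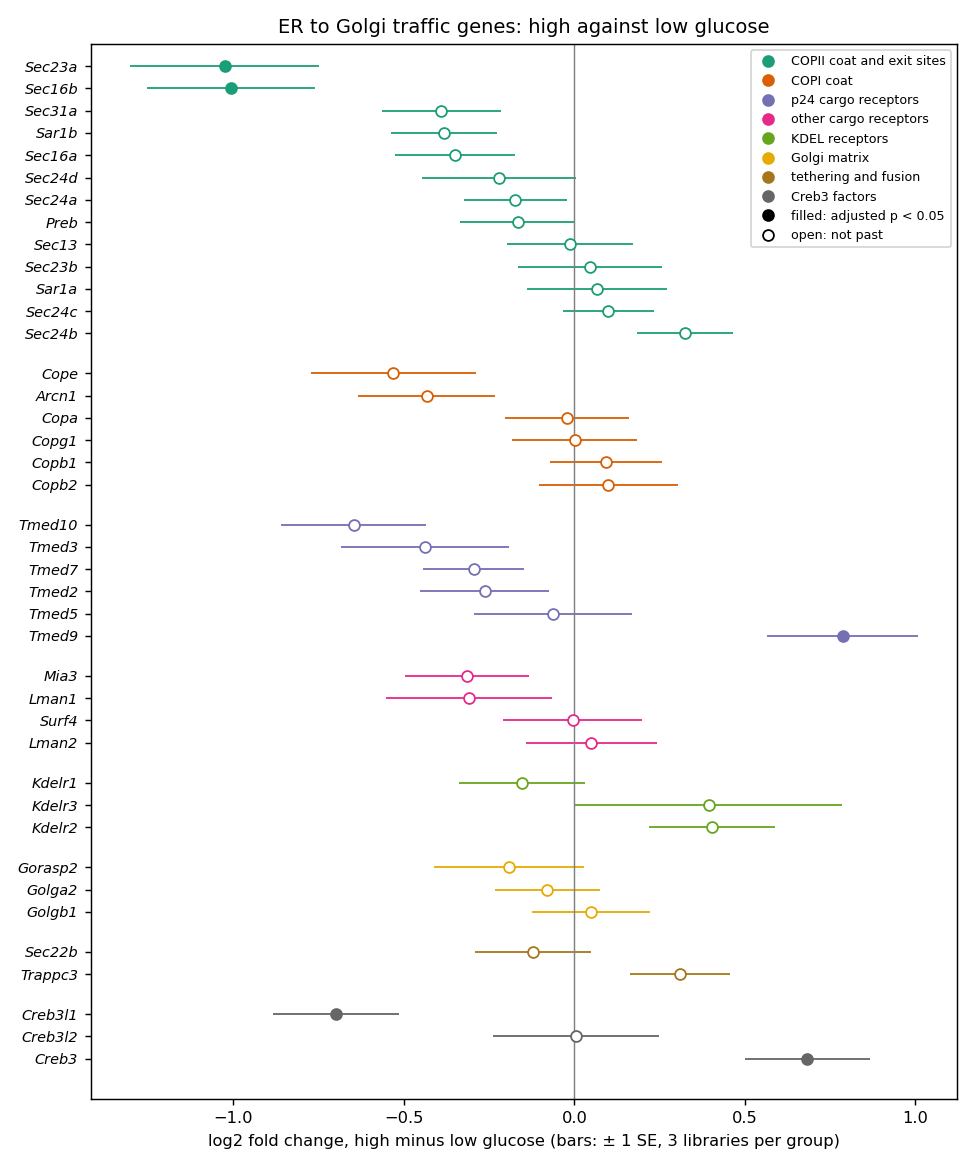
Log2 fold change (high minus low glucose, x axis) of each of the 40 genes (y axis), grouped and coloured by role, with bars of 1 SE from 3 libraries per group. Filled points passed an adjusted p of 0.05: with TMM scaling Sec23a, Sec16b and Creb3l1 lie to the left of 0 (to the right with library totals), Tmed9 and Creb3 to the right, and most other points lie within 0.5 of 0.

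The COPII group held 13 genes, of which 2 fell (15.4%, against 14.2% of all genes) and none rose (13.3% of all genes did). Sec23a, which encodes an inner coat subunit that activates the GTPase of Sar1, lies on chromosome 12 (58958383 to 59012017, minus strand, GRCm38). It had 49.8, 42.7 and 23.3 CPM in low 1 to low 3 and 21.9, 17.8 and 17.4 CPM in high 1 to high 3. The groups did not overlap, but low 3 lay close to the high glucose libraries. The means were 38.6 ± 13.7 and 19.0 ± 2.48 CPM (SD, n = 3), a log2 fold change of -1.03 ± 0.28 (SE) with an edgeR adjusted p of 0.0313. Sec23b, the paralog of Sec23a, had 80.4, 94.3 and 123 CPM at low and 122, 93.4 and 91.4 CPM at high glucose. Those groups overlapped, with a log2 fold change of 0.04 ± 0.21.

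Sec16 proteins organise the ER exit sites where COPII vesicles form. Sec16b, on chromosome 1 (157506728 to 157568425, plus strand), had 41.3, 31.9 and 23.7 CPM at low and 20.0, 14.2 and 14.1 CPM at high glucose. All 3 high glucose libraries were below all 3 low glucose libraries, and the log2 fold change was -1.01 ± 0.25 (edgeR adjusted p 0.0227). Sec16a, the more abundant paralog with the greater exonic length, had 130.4, 122 and 154 CPM at low and 124, 99.0 and 96.5 CPM at high glucose. These overlapped, with a log2 fold change of -0.35 ± 0.18 that did not pass. In the low glucose libraries both Sec23a and Sec16b ran in the order low 1, low 2, low 3, from high to low. So did Sec24b and Sec24c, which had log2 fold changes of 0.32 and 0.10 and did not pass. The 8 intestinal markers ran in the same order, at a summed 5093, 3980 and 1506 CPM, with 144, 31.4 and 20.8 CPM in high 1 to high 3. Their part in the 2 falls was not tested.

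The 4 Sec24 genes, which encode the cargo-binding subunits, did not pass. Sec24b had 47.8, 43.7 and 43.1 CPM at low and 49.2, 61.9 and 57.5 CPM at high glucose, so its groups did not overlap, and its log2 fold change was 0.32 ± 0.14. Sec24a had 45.4, 46.2 and 36.3 CPM at low and 34.5, 39.9 and 39.2 CPM at high glucose. Sec24c was the steadiest of the 4, at 103, 98.9 and 97.7 against 107, 106 and 108 CPM. Sec24d had 102, 101 and 122 against 124, 78.2 and 76.1 CPM, with high 1 apart from high 2 and high 3.

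The remaining COPII genes did not pass either. Sar1a had 123, 149 and 175 CPM at low and 186, 140.0 and 143 CPM at high glucose, and the groups overlapped. Sar1b was lower throughout, at 26.7, 31.1 and 25.6 against 23.2, 21.7 and 19.0 CPM, with no overlap and a log2 fold change of -0.38 ± 0.16 (edgeR adjusted p 0.107). Of the outer cage genes, Sec13 had a log2 fold change of -0.01 ± 0.18, and Sec31a one of -0.39 ± 0.18, with 267, 305 and 315 against 245, 218 and 213 CPM and no overlap. Sec31a did not pass by edgeR and passed by DESeq2. Preb averaged 107 ± 11.3 CPM (SD, n = 3) in the low glucose group against 94.9 ± 12.8, and 21.8% of its exonic length overlaps Abhd1 on the other strand, a gene that averaged 2.03 and 0.811 CPM in those groups.

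None of the 6 COPI coat genes passed by edgeR, DESeq2 or limma-voom. By edgeR 0 had an unadjusted p under 0.05, and by DESeq2 Arcn1 (0.0248) and Cope (0.0413) did. Copa, Copb1, Copb2 and Copg1 encode 4 of the large coatomer subunits, and their log2 fold changes lay between -0.02 and 0.10 with SEs of 0.16 to 0.20. Copa, the most abundant in counts, had 315, 320 and 359 CPM at low and 358, 317 and 303 CPM at high glucose, and the groups overlapped. Cope, which encodes the epsilon subunit, and Arcn1, which encodes the delta subunit, had lower values at high glucose. Cope went from 176 ± 46.3 to 122 ± 20.8 CPM, with overlapping groups, and Arcn1 from 311 ± 57.7 to 230.2 ± 12.5 CPM, with none (SD, n = 3). Their log2 fold changes were -0.53 ± 0.24 and -0.43 ± 0.20, and both passed when replicate 1 was left out of both groups (-0.86 and -0.59).

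The p24 proteins are small cargo receptors that cycle between ER and Golgi in complexes of several members. Of the 6 p24 genes 1 rose (16.7%, against 13.3% of all genes) and 5 did not pass. Tmed9, on chromosome 13 (55573732 to 55597697, plus strand), had 48.9, 62.8 and 49.7 CPM at low and 121, 75.3 and 81.6 CPM at high glucose. Every high glucose library was above every low glucose library, and high 1 was the highest of all. The log2 fold change was 0.79 ± 0.22 (edgeR adjusted p 0.0355), or 0.55 without high 1. The other 5 had negative values. Tmed10 had 158, 226 and 251 CPM at low and 146, 132 and 128 CPM at high glucose, which did not overlap, with a log2 fold change of -0.65 ± 0.21 and an edgeR adjusted p of 0.0574. It passed by DESeq2 and without low 1 or high 1. Annotation holds a processed pseudogene of Tmed10, so its counts are uncertain. Tmed3 had 137, 223 and 229 against 170.4, 124 and 141 CPM. Tmed7, which shares 9.48% of its exonic length with Ticam2 on the same strand, had 94.6, 99.4 and 104 against 91.3, 77.6 and 73.8 CPM. The ratio of Tmed9 to Tmed10 counts, a pair chosen after the values were seen, was 0.309, 0.278 and 0.198 at low and 0.830, 0.572 and 0.640 at high glucose.

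No other cargo receptor gene passed by edgeR, DESeq2 or limma-voom, and 0 of the 4 had an unadjusted p under 0.05. Surf4, which encodes a receptor for soluble cargo, averaged 254 ± 29.1 CPM in the low glucose group against 253 ± 44.8 (SD, n = 3). Lman2, a lectin gene, had a log2 fold change of 0.05 ± 0.19. Lman1, the lectin ERGIC-53, and Mia3, which encodes the collagen export factor TANGO1, had -0.31 ± 0.24 and -0.32 ± 0.18.

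The 3 KDEL receptor genes did not pass by edgeR, DESeq2 or limma-voom, and 0 had an unadjusted p under 0.05. KDEL receptors bind the tail of escaped ER chaperones and return them. Kdelr1 had 80.6, 107 and 121 CPM at low and 100.1, 88.7 and 88.3 CPM at high glucose. Kdelr2 had 73.0, 91.3 and 78.6 against 129, 91.9 and 99.5 CPM, with no overlap and a log2 fold change of 0.40 ± 0.18. Kdelr3 was the least abundant, at 7.36, 13.0 and 21.2 against 12.8, 17.97 and 23.2 CPM. Its libraries differed more within a group than between groups, and its log2 fold change was 0.39 ± 0.39.

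Golgi matrix and fusion genes did not pass by edgeR, DESeq2 or limma-voom, with 0 of 5 at an unadjusted p under 0.05. Golga2 (GM130), Golgb1 (giantin) and Gorasp2 (a stacking protein gene) had log2 fold changes of -0.08 ± 0.15, 0.05 ± 0.17 and -0.19 ± 0.22. The SNARE gene Sec22b had -0.12 ± 0.17. Trappc3, a subunit of the TRAPP tethering complex, had 19.0, 22.9 and 21.9 against 27.0, 26.8 and 25.1 CPM, with no overlap and a log2 fold change of 0.31 ± 0.15.

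Of the 3 Creb3 factors 1 rose, 1 fell and 1 did not pass. Creb3, also known as Luman, lies on chromosome 4 (43562332 to 43567060, plus strand). It rose from 28.5, 34.9 and 42.9 CPM in low 1 to low 3 to 50.5, 57.5 and 62.2 CPM in high 1 to high 3. No library of one group reached into the other, and the log2 fold change was 0.68 ± 0.18 (edgeR adjusted p 0.0305). Of the exonic length of Creb3, 15.2% overlaps Tln1 and 5.61% overlaps Gba2, both on the other strand, and without a stated strand setting those reads could not be told apart. Tln1 had a log2 fold change of 0.48 and Gba2 one of -0.39, and neither passed.

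Creb3l1, also known as OASIS, is known for driving secretory genes in collagen-secreting cells and lies on chromosome 2 (91982328 to 92024502, minus strand). It fell from 62.8, 93.3 and 79.6 CPM to 54.7, 46.3 and 43.9 CPM. The groups did not overlap, although low 1 and high 1 lay close together, and the log2 fold change was -0.70 ± 0.19 (edgeR adjusted p 0.0294). The 8 stellate and fibroblast markers had a summed 349, 285 and 390 CPM at low and 372, 50.8 and 107 CPM at high glucose. High 1, where they were near the low glucose level, also had the highest Creb3l1 of the high glucose libraries, as for 34 of the 40 genes. By contrast, low 2 had the lowest marker sum and the highest Creb3l1 of the low glucose libraries. High 3 likewise had a larger marker sum than high 2 and less Creb3l1. The part of these markers in the fall was not tested. Creb3l2 had 89.5, 69.3 and 73.6 against 107, 66.5 and 60.1 CPM, with a log2 fold change of 0.00 ± 0.24. The ratio of Creb3 to Creb3l1 counts, again chosen after the values were seen, was 0.454, 0.375 and 0.540 at low and 0.924, 1.24 and 1.42 at high glucose.

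**Figure D2:**
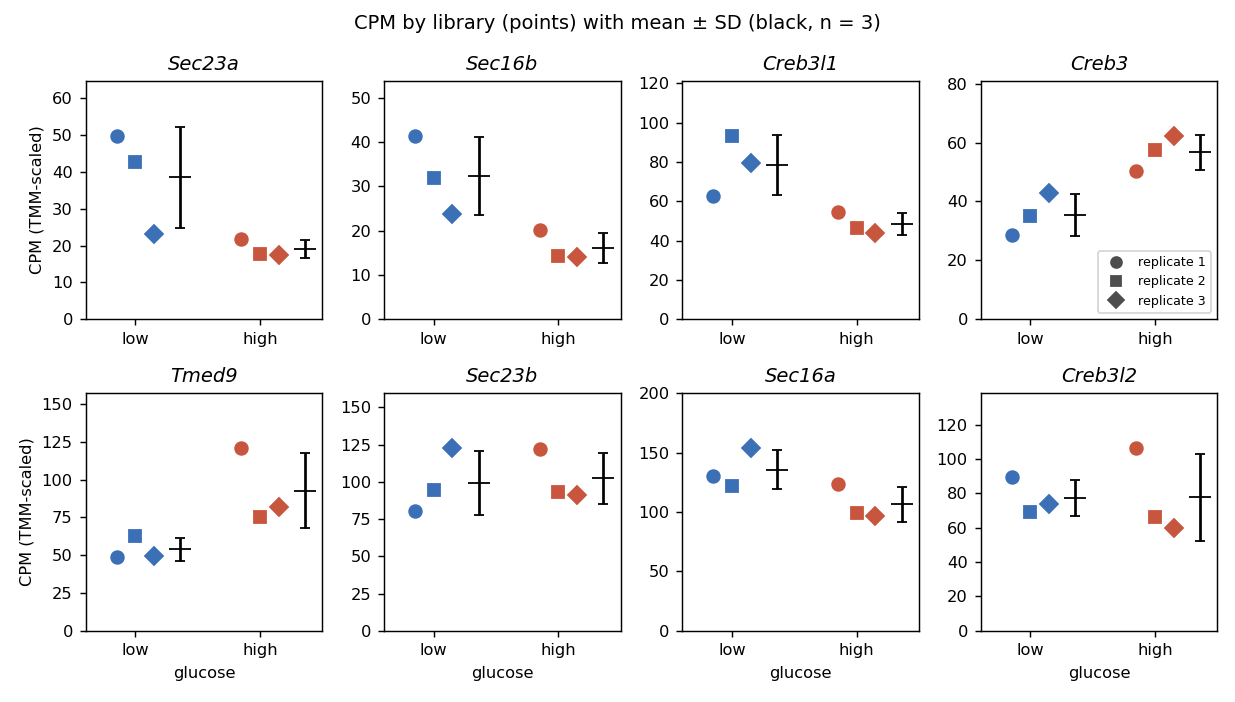
CPM (y axis, TMM-scaled) in each library (points, shaped by replicate) at low and high glucose (x axis), with mean and SD of 3 libraries in black, for the 5 genes that passed and for Sec23b, Sec16a and Creb3l2. On this scaling, all high glucose points of Sec23a, Sec16b and Creb3l1 lie below the low glucose points, in Creb3 and Tmed9 above, and in the other 3 genes the groups overlap.

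Ratios of 2 genes within a library do not depend on the scaling, so 9 pairs of related genes were compared that way. Such ratios can still vary with the mix of cell types in a library, whose part was not tested. With 3 libraries against 3, the smallest p that an exact 2-sided permutation test allows is 0.10. With libraries paired by replicate number, 5 of the 9 ratios shifted with one sign in all 3 pairs of libraries: Sec24a to Sec24b, Sar1a to Sar1b, Sec16a to Sec16b, Kdelr1 to Kdelr2 and Creb3l1 to Creb3l2 (exact 2-sided sign-flip p 0.25, the smallest that 3 pairs allow). Unpaired, the groups did not overlap for 2 of the 9. The Kdelr1 to Kdelr2 count ratio was 1.10, 1.18 and 1.53 at low and 0.774, 0.965 and 0.888 at high glucose, so Kdelr1 had more counts than Kdelr2 in every low and fewer in every high glucose library (exact p 0.10, adjusted 0.36). The Sec24a to Sec24b ratio was 0.951, 1.06 and 0.843 at low and 0.702, 0.646 and 0.681 at high glucose (exact p 0.10, adjusted 0.36). No pair passed after adjustment over the 9.

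For Sec23a and Sec16b, which fell, the ratio to the paralog differed among the low glucose libraries. The Sec23a to Sec23b ratio was 0.619, 0.454 and 0.190 in low 1 to low 3 and 0.179, 0.191 and 0.191 in high 1 to high 3 (exact p 0.30, adjusted 0.386). Low 3 lay within the range of high glucose, and low 1 and low 2 lay above it. The Sec16a to Sec16b ratio was 3.15, 3.82 and 6.47 against 6.17, 6.94 and 6.83, where low 3 again lay within the range of high glucose (exact p 0.20, adjusted 0.36). Sar1a to Sar1b was 4.62, 4.79 and 6.82 against 8.02, 6.44 and 7.48 (exact p 0.20, adjusted 0.36), and Creb3l1 to Creb3l2 was 0.702, 1.35 and 1.08 against 0.512, 0.697 and 0.730 (exact p 0.20, adjusted 0.36). The mean log2 ratio of the remaining 3 pairs differed by 0.35 for Sec24c to Sec24d, -0.07 for Kdelr2 to Kdelr3 and -0.11 for Tmed3 to Tmed7 (exact p 0.30, 1.0 and 0.60).

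**Figure D3:**
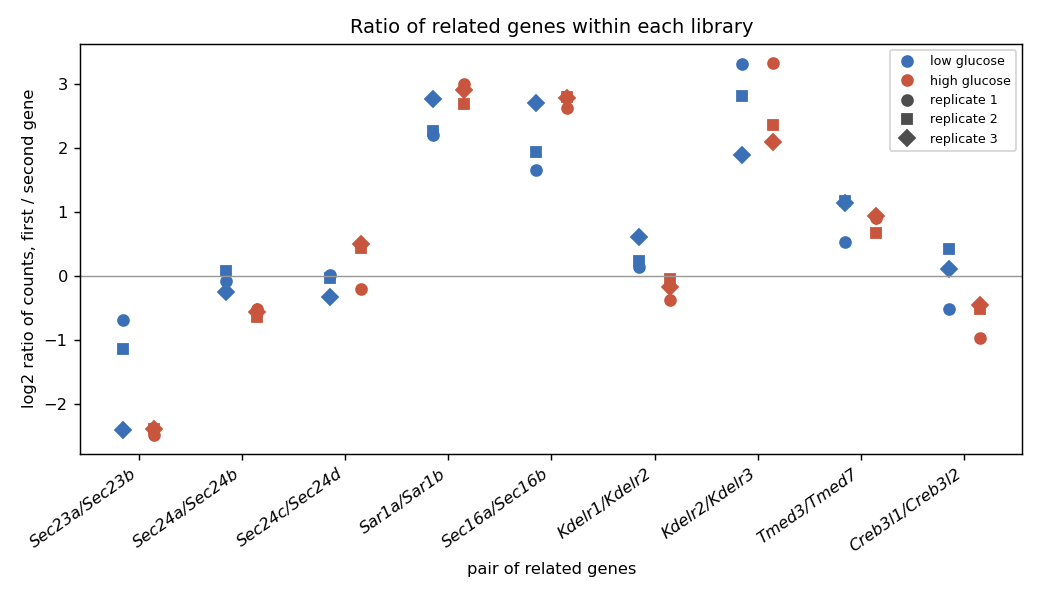
Log2 ratio of the counts of 2 related genes within each library (y axis) for 9 pairs (x axis), with low glucose in blue, high glucose in red and replicates by shape. The colours separate for Sec24a/Sec24b and Kdelr1/Kdelr2, and for Sec23a/Sec23b low glucose replicate 3 lies at the level of high glucose.

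Levels of the 40 genes were also compared with each other per length, as CPM per kb of exon. The length merged all annotated exons of a gene rather than those of a transcript, so the order of genes depends on the annotation. At low glucose the levels ran from 3.99 for Sec24a to 77.4 for Surf4, with a median of 18.4. Surf4 (77.4 ± 8.87 CPM per kb), Tmed3 (69.0 ± 18.05), Gorasp2 (58.0 ± 13.8), Kdelr1 (54.9 ± 10.9) and Cope (52.4 ± 13.8) were the 5 highest (SD, n = 3), and each lay within the spread of its neighbour in that order. At high glucose the median was 17.8 and Surf4 was again the highest (77.1 ± 13.7), followed by Kdelr2 (58.5 ± 10.8), which was 8th at low glucose (44.3 ± 5.12). Sec16b was the lowest of the 40 at high glucose (2.98 ± 0.625 CPM per kb). Among the Creb3 factors the order changed: per kb of exon, Creb3l1 led at low glucose (30.2 ± 5.87, against 14.9 ± 3.06 for Creb3 and 10.6 ± 1.46 for Creb3l2). At high glucose Creb3 had 23.9 ± 2.49, Creb3l1 18.6 ± 2.17 and Creb3l2 10.7 ± 3.47 CPM per kb.

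Within a group, many of the 40 genes ran in the same order across libraries. Low 1 was the lowest of the 3 low glucose libraries for 30 of the 40 genes (75%, against 36.8% of all genes tested), and high 1 was the highest of the 3 high glucose libraries for 34 of 40 (85%, against 41.2%). For the summed CPM of each of the 8 roles, low 1 was also the lowest low and high 1 the highest high glucose library. Summed over the 40 genes the libraries had 4599, 5202 and 5877 CPM at low and 5382, 4401 and 4438 CPM at high glucose. Low 1 and high 1 both had the lowest acinar share of their group, as given above, yet low 1 had the lowest and high 1 the highest sum. The part of that share in the order was not tested. As a share of all counts the 40 genes took 0.432%, 0.295% and 0.320% at low and 0.960%, 0.602% and 0.622% at high glucose.

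Leaving replicate 1 out of both groups, a comparison added after the data had been examined, gave 2 higher and 14 lower among the 40 genes, with 2 libraries per group. The 14 lower ones were Sec31a, Sec23a, Sec24d, Sec16a and Sec16b of COPII, Cope and Arcn1 of COPI, Tmed2, Tmed3, Tmed7 and Tmed10 of the p24 family, the receptors Lman1 and Mia3, and Creb3l1. The 2 higher ones were Creb3 (0.62) and Sec24b (0.46). In that comparison 5628 of 13711 genes passed, 2792 of them higher and 2836 lower. The median of the 40 was -0.28 (0.02 over all genes). Leaving out replicate 2 of both groups gave 0 calls by edgeR (2 at an unadjusted p under 0.05), and leaving out replicate 3 gave 1, Sec23a. Over all genes 942 of 14379 and 1083 of 14340 passed in those 2 comparisons.

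**Figure D4:**
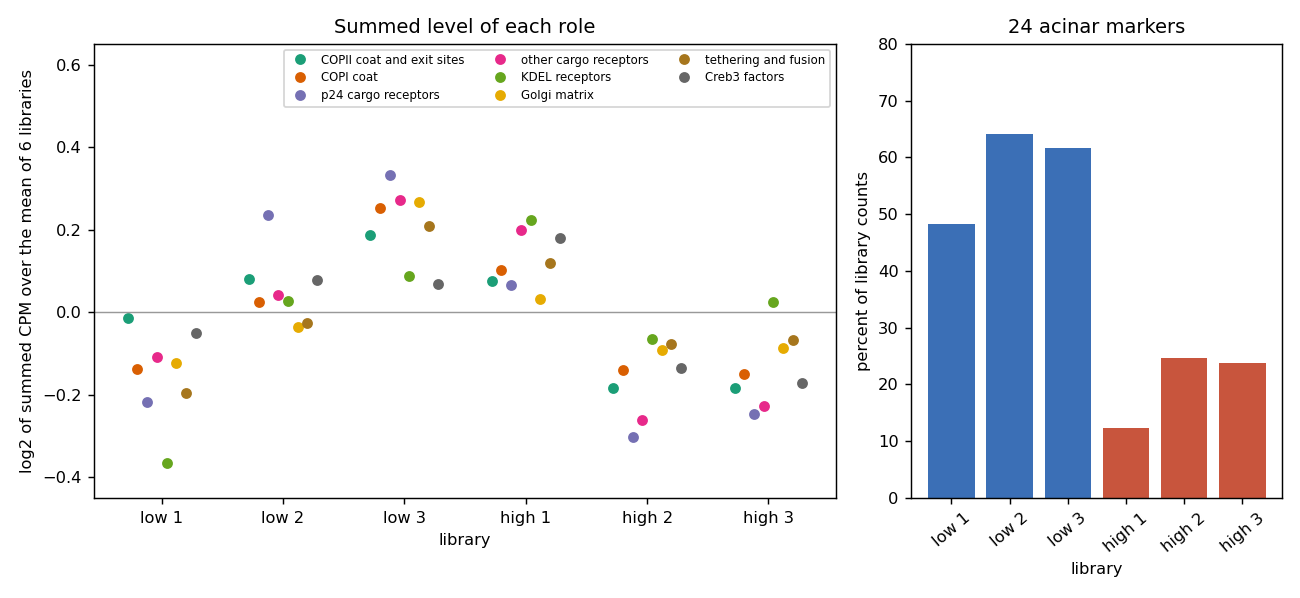
Left, log2 of the summed CPM of each role over its mean across the 6 libraries (y axis) by library (x axis). Right, the 24 acinar markers as a percent of library counts, from 48.2% to 64.1% at low (blue) and 12.4% to 24.7% at high glucose (red). All 8 roles are lowest in low 1 among the low and highest in high 1 among the high glucose libraries.

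Starts of these genes were searched for short stress-response elements, which factors of the ER and Golgi stress responses, Creb3 factors among them, are known to bind. RefSeq promoters (GRCm38.p6, 250 bases before to 50 after the start) were held for 33 of the 40 genes, all but Arcn1, Creb3l1, Golgb1, Kdelr2, Lman1, Tmed2 and Tmed7. Motifs were searched on both strands. The unfolded protein response element UPRE (TGACGTGG) was present in 6 of 33 (18.2%), against 1.07% of 10799 tested genes with an entry. The Golgi stress element GASE (ACGTGGC) was present in 12 of 33 (36.4%, against 4.55%). The 2 share the letters ACGTGG, and 4 genes held both as overlapping matches. The ER stress element ERSE (CCAAT and CCACG 9 bases apart) was in 0 of 33 (0.157% of tested genes) and the cAMP response element CRE (TGACGTCA) in 1, Cope (3.03%, against 3.58%). A match is a description of letters and not a shown binding site.

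The 6 UPRE matches are printed below with their surroundings. The search took exact letters only, so the core is the same in all 6 by construction. Capitals mark the match, which reads CCACGTCA where it lies on the opposite strand. Windows are 5′ to 3′ on the gene's strand, 30 bases long where they touch the annotated gene and 60 otherwise.
Sec16b (chr1:157506741-157506770, plus): ttctgtgtggcTGACGTGGcacggcagttt
Sec24d (chr3:123267459-123267488, plus): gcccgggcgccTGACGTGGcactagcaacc
Copb1 (chr7:114254690-114254719, minus): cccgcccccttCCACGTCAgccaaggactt
Kdelr3 (chr15:79516348-79516407, plus): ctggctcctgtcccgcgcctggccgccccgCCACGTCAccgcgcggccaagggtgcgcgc
Copb2 (chr9:98563713-98563742, plus): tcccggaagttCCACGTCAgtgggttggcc
Sec23a (chr12:59011993-59012022, minus): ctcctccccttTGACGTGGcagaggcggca

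Log2 fold changes of these 6 genes ran from -1.03 (Sec23a) and -1.01 (Sec16b), which fell, through -0.22 (Sec24d), 0.09 (Copb1) and 0.10 (Copb2) to 0.39 (Kdelr3), which did not pass. Their median was -0.06. The 2 genes that rose held the GASE letters without UPRE, shown here in capitals.
Creb3 (chr4:43562541-43562570, plus): tagcccccgggACGTGGCgcagcccaggag
Tmed9 (chr13:55593120-55593149, plus): tccgctgggctACGTGGCtcggcagtctgc

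Counted from the RefSeq start, the first base of the match lies 106 bases before it in Creb3 and 4 bases before it in Tmed9. The GENCODE coordinates given for these genes begin further upstream, so both windows lie inside them. Of the 5 genes that passed, 4 had an entry, and all 4 held the letters of 1 or both elements, 2 of them higher and 2 lower at high glucose. Among the 14 genes with either element 2 rose and 2 fell, and the median log2 fold change was 0.03 (range -1.03 to 0.79). Among the 19 with neither 0 passed, and the median was -0.12 (range -0.65 to 0.32). Of all genes tested 27.5% passed, and a link between element and call was not tested.

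A further 73 genes of the same route were read from a list of other ER to Golgi traffic genes. Of these 2 rose and 11 fell (17.8%, against 27.5% of all genes). By direction, 13.3% of all genes were higher and 14.2% lower. The median log2 fold change of the 73 genes was -0.07. The largest fall was that of Creb3l3, a Creb3 factor known from liver and intestine, from 70.1, 43.9 and 15.6 CPM to 1.24, 1.598 and 0.605 CPM (log2 fold change -5.23 ± 0.63, edgeR adjusted p 0.0018). Its low glucose values ran in the order of the intestinal markers, and their part was not tested. Tmed6, a p24 gene, fell from 214, 465 and 453 CPM to 24.9, 59.4 and 56.3 CPM (-3.01 ± 0.44, edgeR adjusted p 0.00354). In both groups replicate 1 was lowest for Tmed6, as it was for the acinar share, whose part was not tested either. Trappc9, a TRAPP subunit gene, fell from 37.1, 48.5 and 59.1 to 27.4, 20.8 and 24.5 CPM (-0.99 ± 0.20, edgeR adjusted p 0.0124).

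That list also holds partners of the 40 genes. Mcfd2, the co-receptor of Lman1, fell from 184, 293 and 389 CPM to 95.0, 130.4 and 123 CPM (-1.31 ± 0.29), and Lman1 did not pass. The Mcfd2 to Lman1 count ratio was 0.701, 1.04 and 1.06 at low and 0.301, 0.607 and 0.597 at high glucose. Copz2, a zeta subunit of COPI, fell from 45.2, 90.8 and 91.5 to 24.2, 34.5 and 30.9 CPM (-1.34 ± 0.29), and Copz1, the other zeta gene, had -0.42 and did not pass. Mcfd2 and Copz2 were lowest in replicate 1 of both groups, as was the acinar share, whose part was not tested. Gbf1, which activates the Arf GTPases that recruit COPI, fell by 0.53 on the log2 scale. Mbtps1, which encodes the protease S1P that cuts Creb3 factors, fell from 82.2, 83.4 and 80.7 to 58.5, 52.2 and 49.5 CPM (-0.62 ± 0.13, edgeR adjusted p 0.0144), and Mbtps2, the S2P gene, had 0.57 ± 0.24 and did not pass. The 2 that rose were Sec23ip, whose product binds Sec23 (0.56 ± 0.16), and Golga7 (0.65 ± 0.20). These partners other than Creb3l3, Tmed6, Trappc9, Sec23ip and Golga7 were named after their values were seen.

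**Figure D5:**
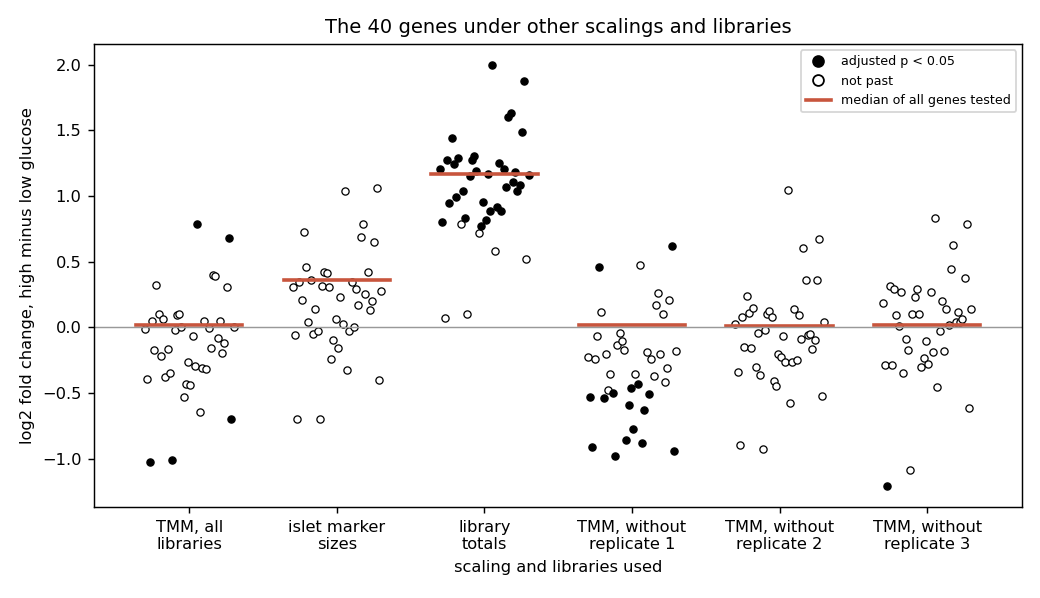
Log2 fold change of the 40 genes (points, y axis) with TMM scaling, with 2 other scalings and with 1 replicate number left out of both groups (x axis). Filled points passed an adjusted p of 0.05, and the red bar is the median of all genes tested, 1.16 with library totals, where 34 of the 40 genes passed.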

How the data were processed

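Polyadenylated RNA was sequenced from 6 islet libraries. The authors deposited 1 table of raw counts per gene, whose columns were matched to samples by name. STAR 2.7.3a, HTSeq 0.6.1p1 and GRCm38 are named per the submitters' processing notes. The sources used here leave unstated the strand setting, the release of the annotation, any filter on reads and whether molecular barcodes were used. Names, coordinates and exonic lengths came from GENCODE M21 (GRCm38). No row of totals was present.

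edgeR 4.0.16 (R 4.3.3) gave the main test, a quasi-likelihood F-test, with TMM scaling, filterByExpr defaults (minimum count 10, minimum total 15) and Benjamini-Hochberg adjustment over 13996 genes. SE was obtained as the size of the log2 fold change over √F. Within-library ratios had 0.5 added to each count. Alternatives were 4 other scalings, 2 filters, DESeq2 1.42.0, limma-voom (limma 3.58.1), a replicate block and left-out libraries. The main test and the exact permutation tests used no pairing. Replicate numbers were taken as pairing in the replicate block and the sign-flip tests. The ground was that deviations of same-numbered libraries correlated at 0.40, 0.26 and 0.25 (other pairs -0.31 to 0.07). No label states a pairing, however, and these values depend on one another. Libraries of a group differed beyond sampling noise (lowest chi-square over its degrees of freedom 16.2). On simulated counts for 13843 genes of this comparison, 88 of 100 genes changed 4-fold and 18 of 100 changed 2-fold were recovered, with 12 of 118 calls wrong.

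The 40 genes, the lists and the tests were chosen with earlier results of these data known. Library values are printed for genes past the threshold, Creb3 factors and members of the pairs, and for some others. Of the other traffic genes, up to 3 with the smallest p per direction were named by rule.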

Additional observations from a re-analysis of the deposited data

How the results depend on the processing

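All 40 genes had at least 78 counts per library, and Kdelr3, where that lowest count lies, had the largest SE (0.39). Of the 40 genes 2 rose and 3 fell in edgeR's test. With library totals 34 rose and 0 fell, and with islet endocrine marker sizes 0 and 0. DESeq2 gave 5 lower. Libraries were left out singly and, as an alternative chosen after seeing the data, by replicate number in both groups. The 40 genes then gave 0 to 3 higher and 0 to 14 lower, and the other traffic genes (2 higher, 11 lower) gave 0 to 5 higher and 2 to 22 lower. Over all genes tested, 942 to 5685 passed in those fits. For those genes library totals gave 58 higher and 2 lower, islet marker sizes 0 and 2, and no filter on low counts 7 lower. The replicate block, which pairs the libraries by number, changed no call among the 40 (2 higher, 3 lower), and gave 4670 changed genes in all against 3848. DESeq2 size factors, TMM without the acinar markers, the stricter filter and limma-voom each gave 2 higher and 3 lower among the 40.

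Sign changes were of 2 kinds. With library totals, which shift the median of all genes to 1.16, the log2 fold change became 1.20 for Sec13, 0.80 for Sec31a, 0.0675 for Sec23a, 0.95 for Sec24a, 0.99 for Sec24d, 0.79 for Sar1b, 1.04 for Preb, 0.83 for Sec16a and 0.10 for Sec16b. It became 1.16 for Copa, 0.72 for Cope, 0.77 for Arcn1, 0.95 for Tmed2, 0.82 for Tmed3, 1.17 for Tmed5, 0.88 for Tmed7, 0.58 for Tmed10, 0.92 for Lman1, 0.89 for Mia3 and 1.20 for Surf4. It became 1.07 for Kdelr1, 1.11 for Golga2, 1.04 for Gorasp2, 1.08 for Sec22b and 0.52 for Creb3l1. With islet marker sizes (median of all genes 0.36) it became 0.31 for Sec13, 0.21 for Sec24a, 0.0433 for Sec24d, 0.14 for Preb, 0.31 for Copa, 0.0627 for Tmed2, 0.23 for Tmed5, 0.0269 for Tmed7, 0.29 for Surf4, 0.17 for Kdelr1, 0.25 for Golga2, 0.13 for Gorasp2 and 0.20 for Sec22b. The shift of all genes is built into these scalings.

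The other kind were values that did not pass on either side, apart from Sec24d, which passed as lower without high 1 (-0.49) and without replicate 1 of both groups (-0.54). With no filter Sec13 had 0.0836, Copa 0.0745, Tmed5 0.0321, Surf4 0.0905 and Golga2 0.0172. Copg1 had -0.0047 by DESeq2, -0.0051 with DESeq2 size factors, -0.024 by limma-voom and -0.0107 with the stricter filter. Surf4 had 0.0021 without the acinar markers. Creb3l2 had -0.0486 by limma-voom and -0.0064 with the stricter filter. With the replicate block Sec13 had 0.0038, Copg1 -0.0091 and Creb3l2 -0.0306. With libraries left out the ranges were -0.22 to 0.19 for Sec13, -0.24 to 0.32 for Sec23b, -0.54 to 0.0096 for Sec24d, -0.20 to 0.27 for Sar1a, -0.13 to 0.10 for Copa, -0.04 to 0.23 for Copb1, -0.10 to 0.29 for Copb2 and -0.17 to 0.10 for Copg1. They were -0.36 to 0.27 for Tmed5, -0.18 to 0.20 for Lman2, -0.24 to 0.14 for Surf4, -0.37 to 0.0205 for Kdelr1, -0.21 to 0.0406 for Golga2, -0.0593 to 0.14 for Golgb1, -0.42 to 0.0439 for Gorasp2, -0.31 to 0.0638 for Sec22b, -0.29 to 0.17 for Creb3l2 and -0.46 to 0.25 for the log2 Kdelr2 to Kdelr3 ratio. The cause was not tested.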
